A study of Homo sapiens with 6 samples.

Results

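The genes described here are 10 members of the circadian clock, namely CLOCK, ARNTL (also written BMAL1), PER1, PER2, PER3, CRY1, CRY2, NR1D1, NR1D2 and DBP. They were chosen by symbol, each matched 1 locus, and they are 10 of the 47577 loci in the table. RNA-seq was performed in OVCAR3, an established line of high-grade serous ovarian adenocarcinoma, after 6 h with DMSO, the solvent, or with 200 nM THZ531, a covalent inhibitor of the transcriptional kinases CDK12 and CDK13. Each group held 3 biological repeats, and the 6 libraries counted 53054048 to 70986130 reads on genes. The titles of the samples name THZ531, whereas their treatment field names THZ1 at the same dose, and the titles were followed. No step that sets the phase of the clock was named in the sources used here and 1 time point was sampled, so that the values give levels at 6 h in 1 cell line and neither phase nor amplitude.

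In the mammalian clock the bHLH-PAS proteins CLOCK and ARNTL bind as a pair to E-boxes and activate the PER and CRY genes. The PER and CRY proteins accumulate, enter the nucleus and repress CLOCK and ARNTL, which closes the loop. NR1D1 and NR1D2 (REV-ERB alpha and beta) are E-box targets too and repress ARNTL through RORE elements, while DBP is an E-box target that activates genes with a D-box. The loop also runs in many cell lines, where the cells drift out of phase unless they are synchronised.

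To show which of these elements lie next to the start of each member, the RefSeq promoter windows (build GRCh38.p14, 250 bases before and 50 after a gene start) were searched on both strands for the E-box CACGTG, the E′-box CACGTT, the D-box TTATGTAA, the cAMP response element TGACGTCA and the RORE. All 10 members had a window, 15 in total, and PER3, NR1D2, CLOCK, ARNTL and CRY2 had 2 each, for different starts. The E-box was found in 2 of these 15 windows, of PER1 and NR1D2, which both rose, and in 7.26% of all 35116 windows. The windows of PER2, CRY1 and NR1D1, which rose as well, held no E-box. All matches to the motifs in the members are shown, whichever way the gene moved. Each is read on the strand of the gene, with the motif in capitals. The start is that of the window with the match. For NR1D2, CLOCK, CRY2 and ARNTL it is the start further downstream of the 2. The matches of PER1, PER2, NR1D2, CLOCK, CRY2 and ARNTL lie inside the span listed for the gene.

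PER1 E-box, 173 bases before the start, chr17:8152563-8152586, minus strand: acccaggtcCACGTGcgcccgtgt
NR1D2 first E-box, 155 bases before the start, chr3:23945957-23945980, plus strand: gggcggggaCACGTGaggccgctc
NR1D2 second E-box, 105 bases before the start, chr3:23946007-23946030, plus strand: ccgcagggaCACGTGggggcgggg

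The E′-box, present in 5.34% of all windows, was found in 5 of the 15 windows of the members, each of a different member. They include PER2, CRY1 and NR1D1, which rose, and CRY2 and CLOCK, which did not. Capitals again mark the motif, which reads AACGTG where it lies on the other strand.

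PER2 E′-box, 197 bases before the start, chr2:238288793-238288816, minus strand: gcgcgcggtCACGTTttccactat
CRY1 E′-box, 89 bases before the start, chr12:107093624-107093647, minus strand: cacttcagaAACGTGaggtgccgg
NR1D1 E′-box, 168 bases before the start, chr17:40100743-40100766, minus strand: caagagctcAACGTGccggctgtt
CRY2 E′-box, 188 bases before the start, chr11:45847278-45847301, plus strand: catggtaggAACGTGagggggcgg
CLOCK E′-box, 187 bases before the start, chr4:55546105-55546128, minus strand: ccactcgggCACGTTtggagcagc

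The D-box (0.886% of all windows) was found in 2 of the 15 windows of the members, those of PER3 and NR1D2. The RORE (0.316% of all windows) was found in 3 of the 15, those of CLOCK, ARNTL and NR1D2. NR1D2, with both elements, was higher after THZ531, whereas ARNTL and CLOCK were lower and PER3 fell. The cAMP response element (1.85% of all windows) was in no window of a member. All of these are matches of letters, which do not show that a factor was bound.

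PER3 D-box, 177 bases before the start, chr1:7784105-7784130, plus strand: gcccgcgcgTTATGTAAcgcgccccg
NR1D2 D-box, 194 bases before the start, chr3:23945918-23945943, plus strand: gacgcggcaTTACATAAtgggcgctg
CLOCK RORE, 217 bases before the start, chr4:55546130-55546158, minus strand: taggccttgTGACCCACTTTattcctgtc
NR1D2 RORE, 133 bases before the start, chr3:23945979-23946007, plus strand: tcggctcccTGACCCACATTccccggggc
ARNTL RORE, 26 bases past the first transcribed base, chr11:13277807-13277835, plus strand: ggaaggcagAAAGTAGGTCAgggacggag

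After 6 h of THZ531 the transcripts of the repressors PER1, PER2, CRY1, NR1D1 and NR1D2 were higher in every treated library than in any DMSO library, PER3 was much lower, and the activators CLOCK and ARNTL were moderately lower. Loci are given below with their FAST DB identifier and their position in hg38. Values are normalized reads, that is the reads counted on a gene divided by the size factor of the library, and they are not corrected for gene length. They were compared with limma on the log2(value + 1) scale, which slightly understates the change of weakly expressed genes, and a gene was called at a fold change of at least 1.5 with an unadjusted p of at most 0.05. With this rule 5 of the 10 members rose, whereas 15.7% of the 17568 loci tested rose, and 1 fell, whereas 23.9% of the loci fell. All 10 members passed the minimum for a test, which was a value of 10 or more in 3 or more libraries. By the Benjamini-Hochberg adjusted p of limma alone, at any fold, 5 members were higher and 4 were lower (34.6% and 34.1% of all loci). DBP, the weakest of the 4, passed 0.05 neither with the replicate number as a block (adjusted p = 0.0575, limma) nor with DESeq2 (0.0515), without a trend (0.0608) or with no minimum (0.0719). It also missed it without DMSO replicate 2 (0.164), DMSO replicate 3 (0.0512) or THZ531 replicate 2 (0.166). The 2 groups of libraries did not overlap for 9 of the 10 members, which was also the case for 71.7% of all loci. The median log2 fold change (log2FC, THZ531 minus DMSO) was 0.33 over the members and -0.01 over all loci. In such bulk RNA, fewer cells with a transcript and less transcript per cell cannot be told apart.

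**Figure D1:**
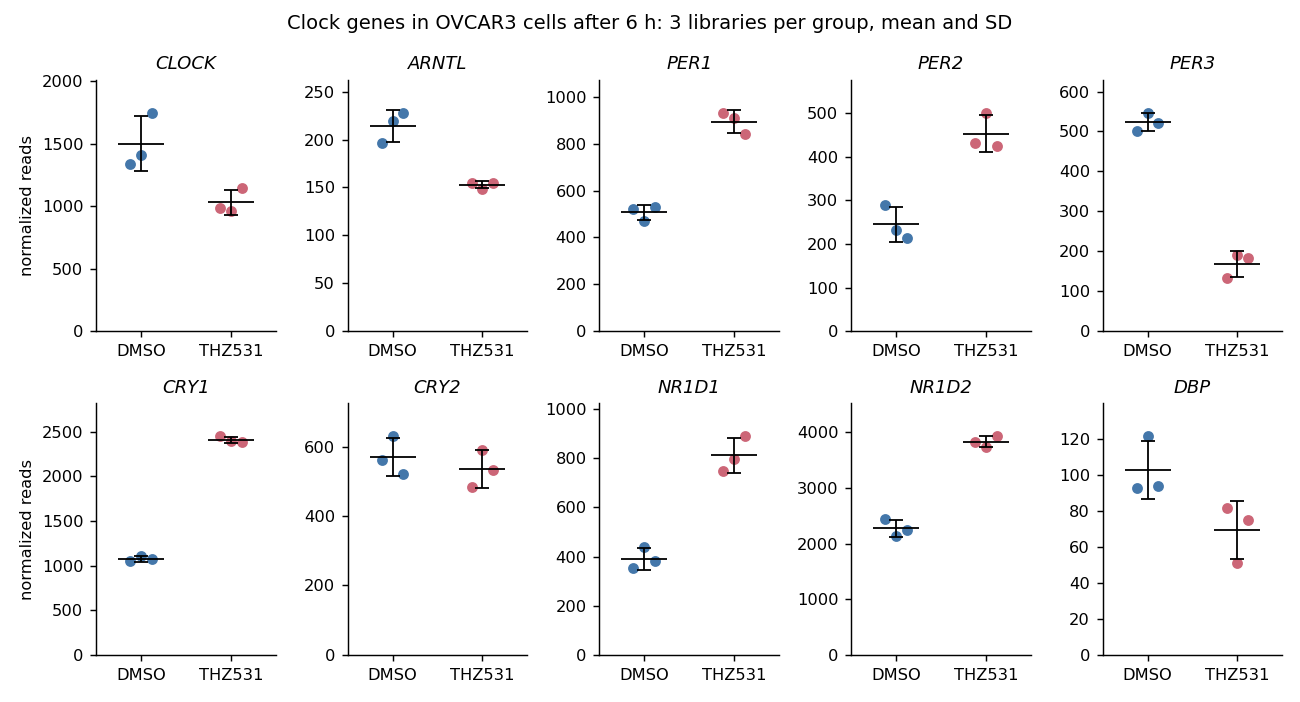
Normalized reads (vertical axes, from 0) of the 10 clock genes in the DMSO and THZ531 libraries, each point 1 library, with the mean and SD of 3. CRY1 lies between 1050.3 and 1109.8 in DMSO and between 2380.0 and 2448 in THZ531, PER3 shows the reverse order, and the groups overlap only for CRY2.

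CLOCK (GSHG0033471, chr4:55427903-55546909, minus strand), whose protein binds DNA together with ARNTL, had 1338, 1409 and 1751 normalized reads in DMSO and 986, 965 and 1143 in THZ531. All treated libraries lay below all DMSO libraries, and DMSO replicate 3 was the highest. The log2FC of CLOCK was -0.53 (standard error, SE, 0.09, adjusted p = 8.7e-05, limma), a 1.45-fold lower level that stayed under the threshold of 1.5. Without DMSO replicate 1 or without THZ531 replicate 3 the log2FC was -0.61 in both cases, and CLOCK was called. ARNTL (GSHG0005951, chr11:13276652-13387268, plus strand) had 196, 219 and 228 normalized reads in DMSO and 155, 149 and 155 in THZ531. The groups did not overlap and the treated libraries were very close to each other. Its log2FC was -0.48 (SE 0.14, adjusted p = 0.0071, limma), which is 1.40-fold lower and also under the threshold. NPAS2, a paralog that can take the place of CLOCK, fell from 2993 ± 21.6 to 1331 ± 56.3 (SD, n = 3), a log2FC of -1.17 (adjusted p = 2.0e-11, limma). ARNTL2, the paralog of ARNTL, had a log2FC of -0.18 (adjusted p = 7.4e-04, limma) and was not called.

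The 3 PER genes encode the proteins that carry the CRY proteins into the repressor complex, and they did not change alike. PER1 (GSHG0018854, chr17:8140472-8156360, minus strand) had 520.0, 472 and 532 normalized reads in DMSO against 933, 909 and 841 in THZ531. Every treated library was above every DMSO library, and the gene rose 1.76-fold (log2FC 0.81, SE 0.08, adjusted p = 2.4e-07, limma). PER2 (GSHG0026448, chr2:238244044-238290102, minus strand) had 289.8, 232 and 214 in DMSO and 432, 501 and 424 in THZ531. It rose 1.85-fold (log2FC 0.89, SE 0.13, adjusted p = 1.4e-05, limma), again without overlap. PER3 (GSHG0000101, chr1:7784291-7845177, plus strand) had 501, 547 and 522 in DMSO but 132, 191 and 183 in THZ531. By the call rule and with the deposited scaling it was the only member that fell. CLOCK, ARNTL and DBP were lower without reaching the fold threshold. The level of PER3 was 3.13-fold lower (log2FC -1.64, SE 0.14, adjusted p = 3.1e-08, limma), and 6.63% of all loci had a lower log2FC.

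CRY1 and CRY2 encode the cryptochromes, the proteins that block CLOCK and ARNTL directly. CRY1 (GSHG0010503, chr12:106991364-107093549, minus strand) had 1050.3, 1109.8 and 1068 normalized reads in DMSO and 2448, 2394 and 2380.0 in THZ531. It rose 2.24-fold with little spread in either group, and this was the highest log2FC of the members (1.16, SE 0.05, adjusted p = 3.3e-11, limma). For CRY2 (GSHG0006128, chr11:45813051-45883247, plus strand) the values were 562, 630.0 and 522 in DMSO and 482, 591 and 534 in THZ531. The groups overlapped, and the log2FC of -0.09 had a 95% interval from -0.31 to 0.12 (adjusted p = 0.42, limma). The locus counted for CRY2 begins 35 bases past the end of SLC35C1, a gene on the same strand that fell (log2FC -1.09, adjusted p = 5.4e-09, limma). The RefSeq promoter windows of CRY2 lie inside its locus. Whether reads between SLC35C1 and these windows were counted for CRY2 was not tested.

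NR1D1 and NR1D2 encode nuclear receptors that repress ARNTL and are bound by heme. NR1D1 (GSHG0019210, chr17:40089228-40100722, minus strand) had 353, 441 and 381 normalized reads in DMSO and 747, 798 and 889.7 in THZ531. It rose 2.07-fold (log2FC 1.05, SE 0.10, adjusted p = 1.3e-07, limma) without overlap. NR1D1 shares 4640 bases with THRA on the opposite strand, and the strand setting of the counting was not given in the sources used here. THRA had a log2FC of 0.39 (adjusted p = 0.0056, limma) and was not called. NR1D2 (GSHG0029793, chr3:23945274-23980618, plus strand) had 2439, 2139.7 and 2239 in DMSO and 3833, 3731 and 3929.5 in THZ531, and rose 1.69-fold (log2FC 0.75, SE 0.05, adjusted p = 3.4e-09, limma). Its 1289 bases shared with NKIRAS1 on the other strand are a smaller overlap, and NKIRAS1 had a log2FC of 0.00 (adjusted p = 0.96, limma).

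DBP (GSHG0023052, chr19:48630030-48637379, minus strand), the D-box activator whose transcription is driven by CLOCK and ARNTL, was the most weakly counted member. It had 92.9, 122 and 94.2 normalized reads in DMSO and 81.9, 51.2 and 75.1 in THZ531, from 45 to 131 reads per library before normalization. All treated libraries were below the DMSO libraries, by a small margin. The log2FC of -0.58 (SE 0.24, adjusted p = 0.0402, limma) was a 1.49-fold lower level, just under the threshold, and over the 6 fits that left out 1 library it was between -0.71 and -0.38. DBP was called without DMSO replicate 1 (-0.65), DMSO replicate 3 (-0.64), THZ531 replicate 1 (-0.71) or THZ531 replicate 3 (-0.65). DBP shares 687 bases with SPHK2 on the opposite strand, which fell (log2FC -1.30, adjusted p = 2.4e-07, limma), and lies within a far longer locus listed as FTL, also on the opposite strand. The part of the overlapping reads in the value of DBP was not tested.

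Except for CRY1 and PER3, which were called under every scaling, the calls of the members changed with how the libraries were scaled. A scaling shifts all genes alike, so the order of the members is fixed by construction. When each library was scaled to the same total, the median log2FC of all loci moved to -0.25, and when each was scaled to RPL34, the reference transcript of the qPCR assays of the study, it moved to -0.50. The scaling to RPL34 rests on 1 gene. With the deposited scaling RPL34 had 12999 ± 1180 normalized reads in DMSO and 18247 ± 86.8 in THZ531 (SD, n = 3; log2FC 0.49, adjusted p = 2.4e-07, limma). Over all loci 2751 rose and 4197 fell with the deposited scaling (15.7% and 23.9%). The counts were 1623 and 5643 with the same total (9.23% and 32.1%), and 1032 and 7574 with RPL34 (5.87% and 43.1%). With the same total 3 members rose (CRY1, NR1D1 and PER2) and 4 fell (PER3, DBP, CLOCK and ARNTL). With RPL34 1 member rose, CRY1, with a log2FC of 0.67, and 5 fell, PER3, DBP, CLOCK, ARNTL and CRY2. The counts of members that fell with either scaling were near the shares of all loci. PER1 and NR1D2 had log2FC values of 0.57 and 0.51 with the same total and of 0.32 and 0.26 with RPL34, where PER2 and NR1D1 were at 0.40 and 0.56.

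**Figure D2:**
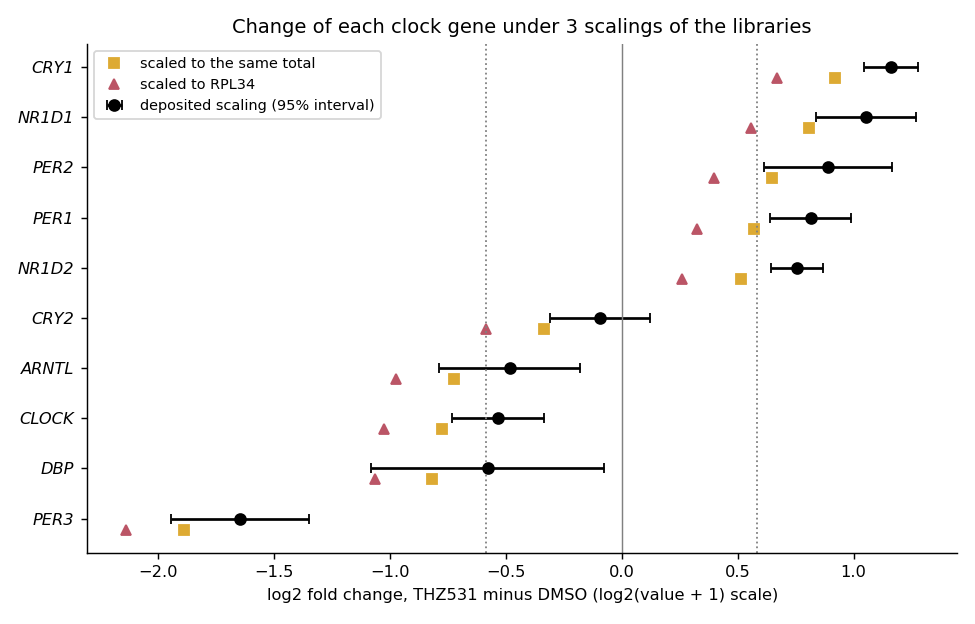
Log2FC (THZ531 minus DMSO, horizontal axis) of the 10 clock genes with the deposited scaling and its 95% interval (black), with libraries scaled to the same total (squares) and to RPL34 (triangles). Dotted lines mark a fold change of 1.5. CRY1 stays above the upper line (1.16 with the deposited scaling, 0.67 with RPL34) and PER3 below the lower line under all 3 scalings.

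A ratio of 2 genes within a library does not depend on the scaling, so 7 pairs of paralogs or partners were compared as log2 ratios of value + 1. With 3 libraries against 3 the two-sided exact permutation test cannot give a p below 0.1, or 0.175 after Benjamini-Hochberg adjustment over the 7 pairs as found here, so that no pair could pass. PER3 over PER2 moved most. Its log2 ratio was 0.79, 1.24 and 1.28 in DMSO and -1.70, -1.39 and -1.21 in THZ531, a difference of -2.53 (95% interval -3.13 to -1.94, exact p = 0.1). The order of the 2 genes was thus inverted in every treated library. CRY1 over CRY2 was 0.92 ± 0.11 in DMSO and 2.17 ± 0.16 in THZ531 (SD, n = 3), a difference of 1.25 (0.94 to 1.57, exact p = 0.1), without overlap. The adjusted p of both pairs was 0.175.

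The other ratios differed less. CLOCK over its DNA-binding partner ARNTL was 2.79 ± 0.13 in DMSO and 2.74 ± 0.12 in THZ531 (SD, n = 3), with overlapping groups and a difference of -0.05 (95% interval -0.33 to 0.23, exact p = 0.6, adjusted p = 0.7). PER1 over PER2 differed by -0.07 (-0.50 to 0.36, exact p = 0.7, adjusted p = 0.7), and NR1D1 over NR1D2 by 0.30 (-0.15 to 0.74, exact p = 0.2, adjusted p = 0.28). These intervals do not show that the genes of a pair changed alike. CLOCK over NPAS2 differed by 0.64 (0.29 to 0.98, exact p = 0.1, adjusted p = 0.175), and ARNTL over ARNTL2 by -0.30 (-0.44 to -0.16, exact p = 0.1, adjusted p = 0.175), both without overlap of the groups. The ratio to NPAS2 was thus higher in every treated library and the ratio to ARNTL2 lower.

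**Figure D3:**
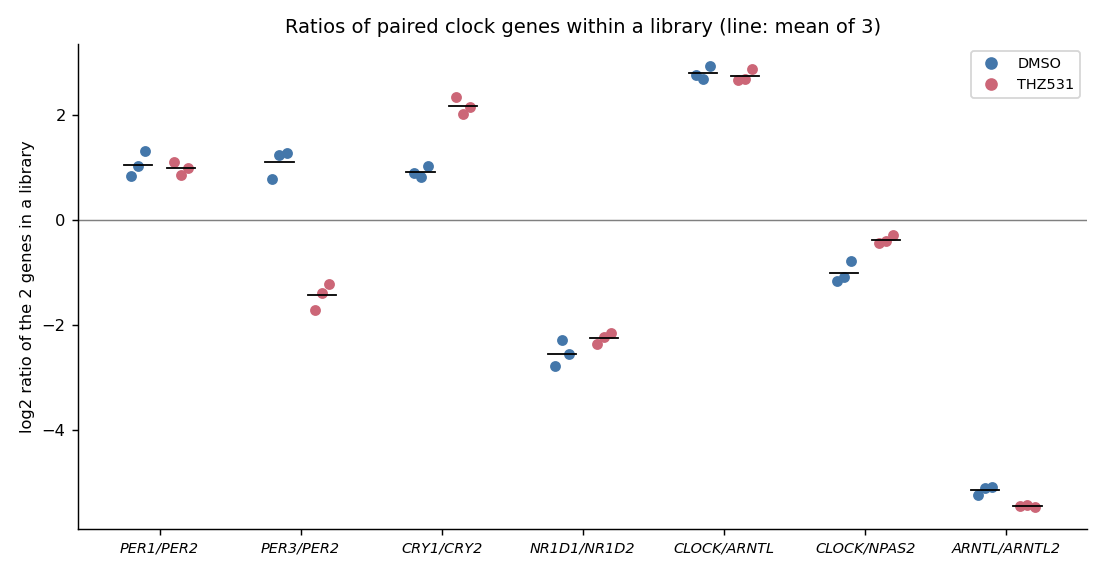
Log2 ratio of 2 clock genes within each library (vertical axis) for 7 pairs, DMSO and THZ531 side by side, each point 1 library and each line the mean of 3. The mean of PER3/PER2 is 1.10 in DMSO and -1.43 in THZ531 and that of CRY1/CRY2 is 0.92 and 2.17, without overlap, while the points of CLOCK/ARNTL overlap.

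Levels of different genes were compared per kb of the MANE Select transcript (GENCODE v44). In DMSO the order was NR1D2 (434 ± 29.1 normalized reads per kb, SD, n = 3) and CRY1 (360.3 ± 10.2), then NR1D1 (149 ± 17.0), CLOCK (143 ± 21.1) and CRY2 (138 ± 13.2), whose libraries overlapped. PER1 followed with 109 ± 6.77, PER3 with 82.2 ± 3.66 and ARNTL with 76.9 ± 5.93, the last pair overlapping. DBP (47.4 ± 7.47) and PER2 (38.4 ± 6.22) were lowest and overlapped as well. The lengths used for this are those of 1 transcript per gene, whereas reads were counted on FAST DB genes, whose counted length was not given in the sources used here.

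In THZ531 the order per kb was CRY1 (806 ± 12.1), NR1D2 (732 ± 19.0), NR1D1 (309 ± 27.5), PER1 (191 ± 10.3), CRY2 (129.7 ± 13.2) and CLOCK (98.5 ± 9.31), none of which overlapped with its neighbours. PER2 (70.9 ± 6.64), ARNTL (54.8 ± 1.23), DBP (32.0 ± 7.44) and PER3 (26.5 ± 5.01) came after, and only DBP and PER3 overlapped. CRY1 had moved above NR1D2, PER2 from position 10 to 7, and PER3 from position 7 to 10. The summed level per kb of the 5 PER and CRY transcripts, divided by that of CLOCK and ARNTL, was 3.65, 3.51 and 2.86 in the DMSO libraries and 8.18, 8.57 and 7.29 in the THZ531 libraries. This ratio does not depend on the scaling of the libraries, and CRY1 is the largest part of its numerator in both groups. Its denominator leaves out the paralogs NPAS2 and ARNTL2, so it does not stand for all activators. Not corrected for length, ARNTL2 had 7562 ± 192 normalized reads in DMSO and 6669 ± 214 in THZ531 (SD, n = 3). The means of ARNTL were 214 and 153. The ratio was not a planned comparison and was not tested.

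**Figure D4:**
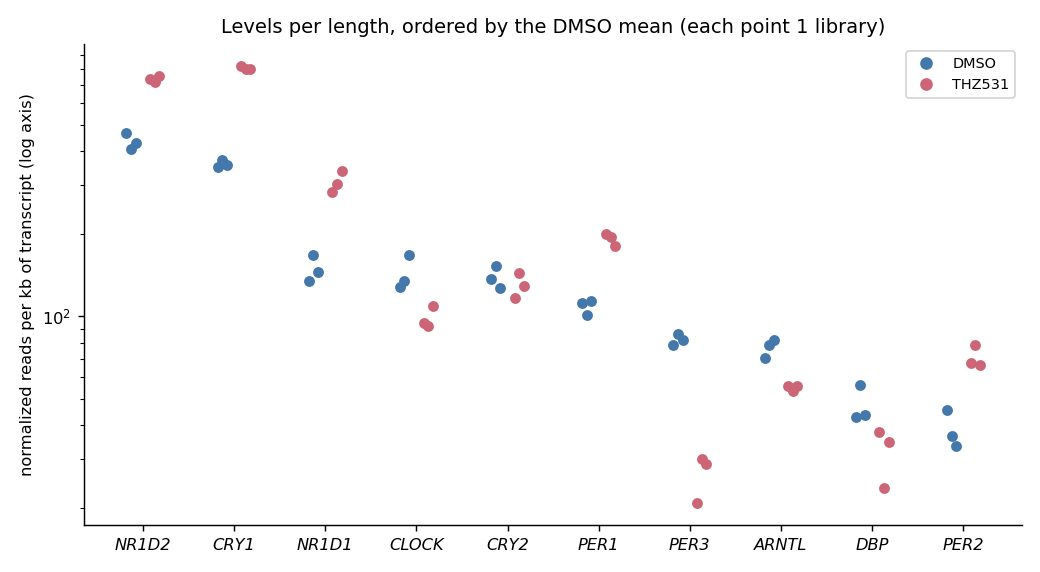
Normalized reads per kb of transcript (log axis) of the 10 clock genes, ordered by their mean in DMSO, each point 1 library. NR1D2 and CRY1 lead in both groups, and PER3 drops from 82.2 to 26.5 on average while PER2 rises from 38.4 to 70.9.

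The members differ widely in structure, and the genes that rose were not of a single size. The locus of CRY1 spans 102186 bases with a first intron of 70611 bases, whereas those of PER1 and NR1D1 span 15889 and 11495 bases. CLOCK and ARNTL, which were lower, span 119007 and 110617 bases with first introns of 36716 and 32063 bases. PER3 spans 60887 bases in 22 exons, close to the 46059 bases and 23 exons of PER2, which moved the other way. Among the 3820 longest tested loci with a symbol, which include CRY1, CRY2, CLOCK and ARNTL, 13.1% rose and 24.3% fell. Among those that span 10412 to 27950 bases, which include PER1 and NR1D1, 9.98% rose.

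Inside the members the table lists 2 loci without a symbol, and 1 passed the minimum for a test. It lies in intron 1 of the MANE transcript of ARNTL (chromosome 11, 13277974 to 13279433) and begins 51 bases into that intron. It had 3.97, 0 and 1.60 normalized reads in DMSO and 12.6, 15.9 and 11.4 in THZ531, from 0 to 14 reads per library. The locus passed the minimum of 10 in 3 libraries through the THZ531 group alone, so a difference was fixed by that filter and no test is given.

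Of the 15 named loci that overlap a member or end within 5 kb of it, 13 were tested, and 2 rose and 3 fell. These shares are near the 15.7% and 23.9% of all loci and say nothing particular about the neighbours. HES6, a bHLH gene that lies 4006 bases from PER2, rose from 288 ± 32.0 to 892 ± 48.8 (SD, n = 3), a log2FC of 1.63 (adjusted p = 6.5e-10, limma). MTERF2, a mitochondrial transcription factor gene that lies 4213 bases from CRY1, moved against it, from 341 ± 15.8 to 90.0 ± 18.0 (log2FC -1.93, adjusted p = 4.5e-08, limma). SLC35C1 and SPHK2 fell as given above, and the locus listed as FTL rose by 0.59 on the log2 scale (adjusted p = 1.5e-09, limma), which lay under the fold threshold with scaling to the same total, the upper quartile or RPL34. FTL also lay under it with edgeR (0.57) and without DMSO replicate 1 (0.57), DMSO replicate 2 (0.58) or THZ531 replicate 2 (0.58). HES6 was called in each of these fits.

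The wider clock pathway was followed in a list of 21 regulators, 20 of which were matched and 18 of which were tested. Of these 5 rose and 6 fell, against 15.7% and 23.9% of all loci, and the median log2FC was -0.15. With libraries at the same total 4 rose and 7 fell (9.23% and 32.1% of all loci). With RPL34 19 regulators passed the minimum, of which 1 rose and 11 fell (5.87% and 43.1% of all loci). BHLHE40 and BHLHE41, which encode the E-box repressors DEC1 and DEC2, went in opposite directions. BHLHE40 rose from 3711 ± 114 to 6705 ± 322 normalized reads (log2FC 0.85, adjusted p = 1.3e-10), and BHLHE41 fell from 9042 ± 691 to 3658 ± 150.3 (-1.30, adjusted p = 6.4e-12, limma, SD, n = 3). With RPL34 BHLHE40 was at 0.36 and was no longer called.

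Several kinases in the list that have clock proteins among their substrates changed as well. CSNK1E, the casein kinase 1 epsilon that phosphorylates PER proteins, rose from 4276 ± 82.2 to 8647 ± 206 (SD, n = 3; log2FC 1.02, adjusted p = 3.9e-12, limma), and was at 0.52 with RPL34. Its paralog CSNK1D, which acts on the same proteins, fell from 6180.5 ± 329 to 4056 ± 138 (log2FC -0.61, adjusted p = 1.0e-08, limma), and was just under the threshold without DMSO replicate 3 (-0.58). GSK3B, a kinase with several clock proteins among its substrates, rose 1.86-fold (0.89, adjusted p = 4.8e-11, limma), and was at 0.40 with RPL34. Of the catalytic subunits of AMPK, which phosphorylates CRY1, PRKAA1 rose (0.81, adjusted p = 5.0e-10) and PRKAA2 fell (-0.80, adjusted p = 6.9e-06, limma). PRKAA1 was below the fold threshold with the same total (0.57) and with RPL34 (0.32).

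CREB1, the factor through which cAMP induces PER1, had the largest fall of the list, from 800.3 ± 46.2 to 165 ± 41.1 normalized reads (SD, n = 3; log2FC -2.30, adjusted p = 9.4e-10, limma). USP2, a ubiquitin protease and clock output, fell by 0.68 on the log2 scale with an adjusted p of 0.051 in limma. It was no longer called with a pseudocount of 10, nor without DMSO replicate 1 (-0.57), DMSO replicate 3 (-0.53) or THZ531 replicate 2 (-0.57). The 7 tested regulators that were not called had log2FC values between -0.51 (BTRC) and 0.45 (CIART), with CIART and BTRC at adjusted p-values of 0.0033 and 5.7e-06 in limma.

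**Figure D5:**
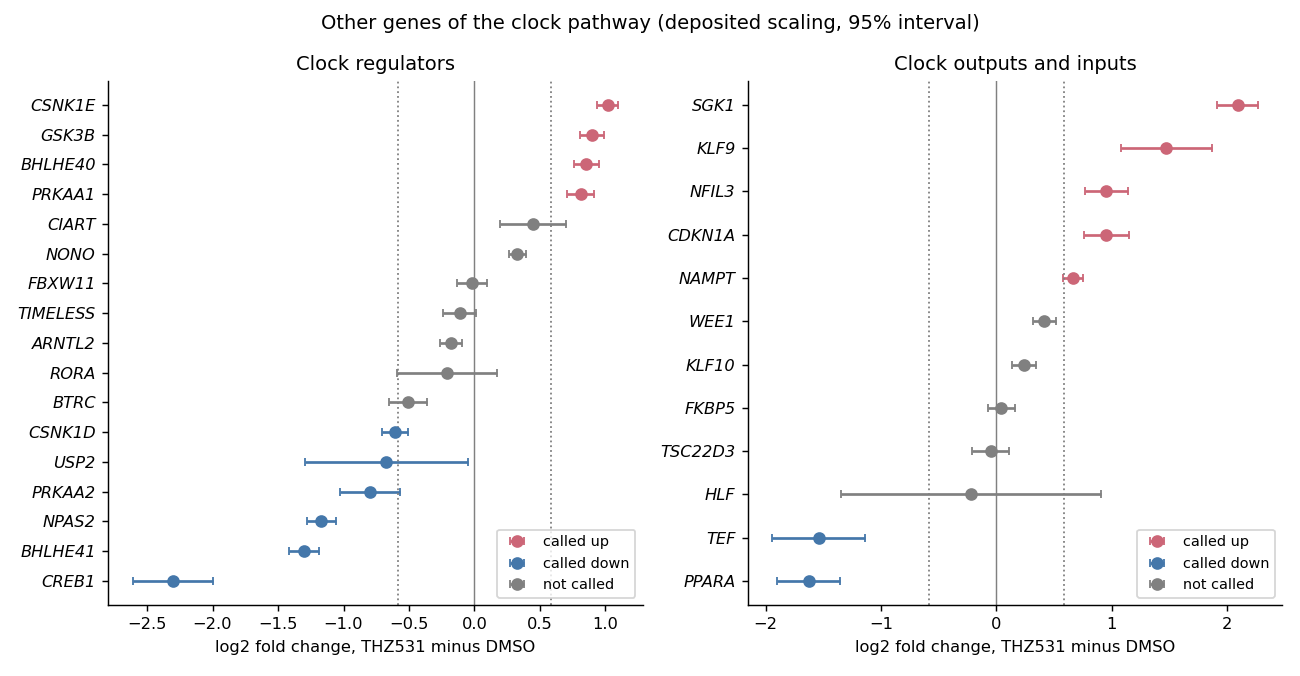
Log2FC with its 95% interval (horizontal axes, THZ531 minus DMSO, deposited scaling) of 17 of the 18 tested clock regulators and of the 12 tested clock outputs and inputs, with dotted lines at a fold change of 1.5. CREB1 (-2.30) and CSNK1E (1.02) are the lowest and highest regulators plotted, PPARA (-1.63) and SGK1 (2.09) the lowest and highest outputs and inputs.

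A second list held 12 outputs of the clock and genes of the glucocorticoid input that induces PER1. All 12 were tested, and 5 rose and 2 fell, against 15.7% and 23.9% of all loci, with a median log2FC of 0.33. At the same total 4 rose and 2 fell (9.23% and 32.1% of all loci) and the median was 0.086, and with RPL34 2 rose and 2 fell (5.87% and 43.1%) and the median was -0.16. TEF, a D-box activator related to DBP, fell from 179 ± 19.2 to 60.8 ± 3.74 normalized reads (SD, n = 3; log2FC -1.54, adjusted p = 2.3e-06, limma). NFIL3, which represses through the same D-box, rose from 493 ± 48.3 to 953.9 ± 41.5 (0.95, adjusted p = 7.0e-08, limma), and was at 0.46 with RPL34. HLF, the remaining gene of the DBP family in the list, was near the minimum, with a mean of 11.6 in DMSO and 9.72 in THZ531.

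SGK1, a kinase gene induced by glucocorticoids and by serum, rose 4.27-fold, from 312 ± 15.9 to 1336 ± 81.9 (SD, n = 3; log2FC 2.09, adjusted p = 5.4e-12, limma). KLF9, a factor induced by glucocorticoids, rose 2.78-fold (1.47, adjusted p = 3.0e-06, limma). The glucocorticoid targets TSC22D3 and FKBP5 had log2FC values of -0.05 and 0.04 (adjusted p = 0.58 and 0.49, limma) and were not called, and the FKBP5 locus joins a further symbol. CDKN1A, the cell cycle inhibitor p21, and NAMPT, the enzyme of NAD+ salvage, rose by 0.95 and 0.66 on the log2 scale (adjusted p = 1.3e-07 and 6.3e-10, limma). NAMPT was at 0.42 with the same total, and CDKN1A and NAMPT were at 0.46 and 0.17 with RPL34. PPARA, a nuclear receptor gene under clock control in liver, fell from 485 ± 31.5 to 157 ± 20.3 (-1.63, adjusted p = 1.4e-08, limma).

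The labelled cell type was checked with 9 markers of serous ovarian epithelium, which were all expressed. Their summed level was 436033 to 446769 normalized reads in DMSO and 555234 to 567623 in THZ531, most of it keratins, and PAX8 was the only one that was called with the deposited scaling (log2FC -3.18, adjusted p = 4.6e-15, limma). Of 13 markers of fibroblasts, leukocytes and endothelium, 4 were under 10 in every library and 1 of these, CD3E, was at 0. Of the 8 tested, COL1A1, COL3A1 and VWF rose (15.7% of all loci), but only 1 did so at the same total or with RPL34 and 2 with edgeR, DESeq2 or the upper quartile. Leaving out 1 library gave 2 that rose, or 4 without THZ531 replicate 3, and the summed level of the list was 1993 to 2261 in DMSO and 3634 to 3867 in THZ531. The part of these transcripts in the values of the clock genes was not tested.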

How the data were processed

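PolyA plus RNA of 6 OVCAR3 cultures was sequenced. The authors used STAR (2.7.5a per the labels) to map reads to hg38, counted them with featureCounts on FAST DB genes, and deposited a signal per locus, the read counts divided by 1 DESeq2 size factor per library (0.794 to 1.26). In each library 100% of the values above 0 were whole multiples of 1 step within 0.01 reads, so the reads were recovered. Every column was used.

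Values were tested with limma 3.58.1 (trend) in R 4.3.3, on log2(value + 1), over the 17568 loci that reached 10 in 3 or more libraries. On the recovered reads edgeR 4.0.16 called 2582 loci up and 4281 down, and DESeq2 1.42.0 called 2680 and 4108. The scripts were tested on simulated data. Ratios used exact permutation tests in scipy 1.17.1. ARNTL2 was compared as a partner in a fixed pair.

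The members and lists were chosen with earlier results of these data known. Named genes are all members, the called genes of both lists (up to 10 each by size of change), and named loci overlapping or within 5 kb of a member. CSNK1D (beyond the first 10), BTRC, CIART, HLF, TSC22D3 and FKBP5 were named after their values were seen. A further regulator is included in the counts and medians but is not reported here. Alternatives were other pseudocounts, minimums, scalings, thresholds and tools, a replicate block, and leaving out each library.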

Additional observations from a re-analysis of the deposited data

How the results depend on the processing

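No called gene named in the text changed sign. Over the 19 alternatives, 165 of the values for members stayed on the same side of the threshold, 16 became called and 9 were no longer called. The count of members that rose was 5 as reported, 3 with the same total, 1 with RPL34 and 2 at a fold change of 2, and the count that fell was 1, but 2 with a pseudocount of 0.1, 2 with the upper quartile, 2 with edgeR, 4 with the same total and 5 with RPL34. Leaving out 1 library gave 5 that rose in each case and 1 to 3 that fell (13.6% to 16.0% and 22.0% to 24.3% of all loci). The median over members moved to 0.088 with the same total and to -0.16 with RPL34. For the regulators 1 rose and 11 fell with RPL34 (of 19 tested, against 5.87% and 43.1% of all loci). At a fold change of 2, 2 rose and 3 fell (7.70% and 15.3% of all loci), and 4 to 6 fell without 1 library. Their median was -0.11 with a minimum of 50, -0.39 at the same total, -0.67 with RPL34 and -0.17 to -0.10 without 1 library. For the outputs and inputs 2 rose with RPL34 and 2 at a fold change of 2 (5.87% and 7.70% of all loci). Their median was 0.42 with a minimum of 50, 0.086 at the same total, -0.16 with RPL34 and 0.31 to 0.43 without 1 library. The minimum of 50 tests fewer genes, and a scaling shifts all genes by construction. The cause of the other changes was not tested.

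With the replicate number as a block 5 members rose and 1 fell as reported, DBP passed 0.05 no longer by its adjusted p (0.0575), and over all loci 2745 rose and 4173 fell. Same-numbered libraries did not deviate together (correlations of 0.0017, 0.019 and -0.039), so the number was not taken as a pairing. The block leaves the differences of the 7 ratios identical by construction. DBP had 45 to 131 reads per library, and whether depth limited its result was not tested.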
